A study of Mus musculus with 16 samples.

Results

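The genes described here are 36 genes of the unfolded protein response and of the integrated stress response, the 2 linked programmes by which a cell reacts to misfolded protein in the endoplasmic reticulum (ER) and to limits on translation. They were given as a list of gene symbols, and each was read from 1 array probe, the one with the highest mean over all 16 arrays. All 36 had a probe that passed the filter on dim probes (signal well above background on 2 or more arrays), of 14679 genes tested in all. By role they were 3 sensors, 5 transcription factors, 5 targets of the integrated stress response, 11 ER chaperones and cofactors, 4 disulfide isomerases, and 8 genes of ER-associated degradation (ERAD) and the translocon.

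Gene expression had been measured with 1-colour Agilent arrays, 1 per sample, in CD4+ T cells enriched and then sorted from mouse spleen. Every mouse was a male of 8 to 10 weeks carrying Cre recombinase under the CD4 promoter, a promoter active in developing and mature T cells, so the controls carried Cre as well. The 6 groups were CD4cre alone (called Cre here, n = 3), CD4cre with IKK2fl/fl (IKK2 knockout, n = 3) and CD4cre with NEMOfl/f (NEMO knockout, n = 2), each without inflammation, and the same genotypes with nephrotoxic serum nephritis (NTN, n = 3, 3 and 2). Nephritis had been induced by an intraperitoneal dose of 2.5 mg of sheep serum against kidney for each gram of body weight, and organs were taken on day 10. IKK2 is the catalytic and NEMO the regulatory subunit of the IkB kinase complex, which switches on NF-kB in T cells. The labels do not say whether arrays of 1 group came from separate mice, so p-values measure the spread among these arrays alone, part of which may be technical.

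In the unfolded protein response, the sensors IRE1 (gene Ern1), PERK (Eif2ak3) and ATF6 (Atf6) sit in the ER membrane. IRE1 splices Xbp1 mRNA into the form that encodes an active transcription factor, ATF6 is cut in the Golgi to release one, and PERK phosphorylates eIF2 alpha, which slows general translation while translation of ATF4 goes up. XBP1 and ATF6 act on genes for chaperones, isomerases and ERAD, whereas ATF4 acts on amino acid and stress genes such as Asns, Ddit3 and Trib3. Plasma cells rely on the XBP1 arm to secrete antibody, and activated lymphocytes enlarge their ER as they grow. An array measures total mRNA, so it shows neither splicing of Xbp1 nor phosphorylation of eIF2 alpha.

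Values are log2 of the processed intensity minus the 75th percentile of the array, so a value can be compared between arrays for 1 gene but not between genes. T cell markers were high on every array, with a mean of 11 markers between 6.83 and 7.08. The share of spots well above background was 48.9% to 59.8%, and arrays of 1 group correlated at 0.971 to 0.993 across genes. Arrays lay on 3 slides: slide 1 held all Cre NTN and IKK2 NTN arrays and IKK2 replicates 1 and 2, slide 2 held the Cre arrays and IKK2 replicate 3, and slide 3 held the NEMO and NEMO NTN arrays. Genotype and slide therefore cannot be told apart for the NEMO knockouts, and nephritis in the Cre mice was compared across slides 1 and 2. The probe for Ikbkb, which encodes IKK2, was 0.24 (SE 0.109, limma adjusted p = 0.162) lower in IKK2 than in Cre arrays and 0.35 (SE 0.122, adjusted p = 0.0371) lower in NEMO arrays. Among the arrays with nephritis it was 0.34 (SE 0.109, limma adjusted p = 0.133) lower in IKK2 than in Cre arrays. In NEMO NTN arrays it was 0.48 (SE 0.122, adjusted p = 0.00653) lower than in Cre NTN arrays. Without nephritis IKK2 replicate 1, at 3.31, was level with the highest Cre array. Ikbkg, which encodes NEMO, was 0.13 (SE 0.107, limma adjusted p = 0.337) lower in NEMO than in Cre arrays without nephritis. It was 0.34 (SE 0.107, adjusted p = 0.0195) lower in NEMO NTN than in Cre NTN arrays. Its level was 0.68 (SE 0.0959, adjusted p = 0.00153) higher in IKK2 than in Cre arrays without nephritis. Another Ikbkg probe read -1.39, -1.60 and -1.75 in Cre NTN and -1.62 and -1.51 in NEMO NTN arrays. These values overlap, so the lower level in NEMO NTN arrays depends on the probe. No source used here gives the position of these probes relative to the deleted exons, so they do not check the labels.

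In the NEMO knockouts most chaperones and isomerases, Xbp1 and the sensor genes Ern1 and Atf6 were higher than in Cre T cells, with and without nephritis, while Ddit3 and Trib3 were lower. Without nephritis 20 of the 36 genes were higher and 2 lower in NEMO than in Cre arrays, by limma with Benjamini-Hochberg adjustment over all genes and a threshold of 0.05. Over all 14679 genes, 21.0% were higher and 22.0% lower in that comparison. With nephritis 17 genes were higher and 3 lower, against 18.8% and 29.6% of all genes. The share of the 36 that changed in either direction was 61.1% and 55.6%, beside 43.0% and 48.3% of all genes, so with nephritis it stood near the background and the list differed from all genes mainly in direction. Its median difference was 0.40 without and 0.24 with nephritis, beside medians of -0.06 and -0.14 over all genes. Without NEMO NTN replicate 2 the count with nephritis was 12.

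Among the sensors, Atf6 and Ern1 were higher in every NEMO array than in any other array. Atf6 read -2.66, -2.28 and -2.57 on the Cre arrays, -1.89, -2.36 and -1.51 on the IKK2 arrays and 0.10 and 0.11 on the NEMO arrays. With nephritis it read -2.14, -2.05 and -2.02 in Cre, -1.64, -1.96 and -1.89 in IKK2 and -0.10 and 0.09 in NEMO mice. The NEMO arrays stood clear of all others, and the remaining groups lay close together. The log2 difference between NEMO and Cre was 2.60 ± 0.201 (SE, adjusted p = 2.25e-06) without and 2.07 ± 0.201 (SE, adjusted p = 9.82e-06) with nephritis.

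Ern1, the kinase and ribonuclease of the pathway's best conserved arm, read -0.59, -0.89 and -0.70 in Cre, -0.89, -0.79 and 0.05 in IKK2 and 0.92 and 0.93 in NEMO arrays. Under nephritis the values were -1.11, -0.70 and -0.86 in Cre, -0.45, -0.50 and -0.64 in IKK2 and 0.84 and 0.70 in NEMO mice. All 4 NEMO arrays were again the highest, and IKK2 replicate 3, the only IKK2 array on slide 2, stood above the other IKK2 arrays. The NEMO arrays exceeded Cre by 1.65 ± 0.227 (SE, adjusted p = 0.000134) without and 1.66 ± 0.227 (SE, adjusted p = 0.000117) with nephritis. Eif2ak3, the gene of PERK, did not pass in any of the 9 comparisons of groups. It read 0.93, 1.31 and 1.23 in Cre, 1.34, 1.38 and 1.40 in IKK2 and 1.40 and 1.48 in NEMO arrays, and 1.43, 1.33 and 1.21 in Cre, 1.54, 1.36 and 1.39 in IKK2 and 1.38 and 1.33 in NEMO mice with nephritis. Without nephritis the Cre arrays, of which replicate 1 was the lowest, lay below the IKK2 and NEMO arrays. The groups with nephritis overlapped. The NEMO difference from Cre without nephritis was 0.28 ± 0.108 (SE, limma adjusted p = 0.0535).

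**Figure D1:**
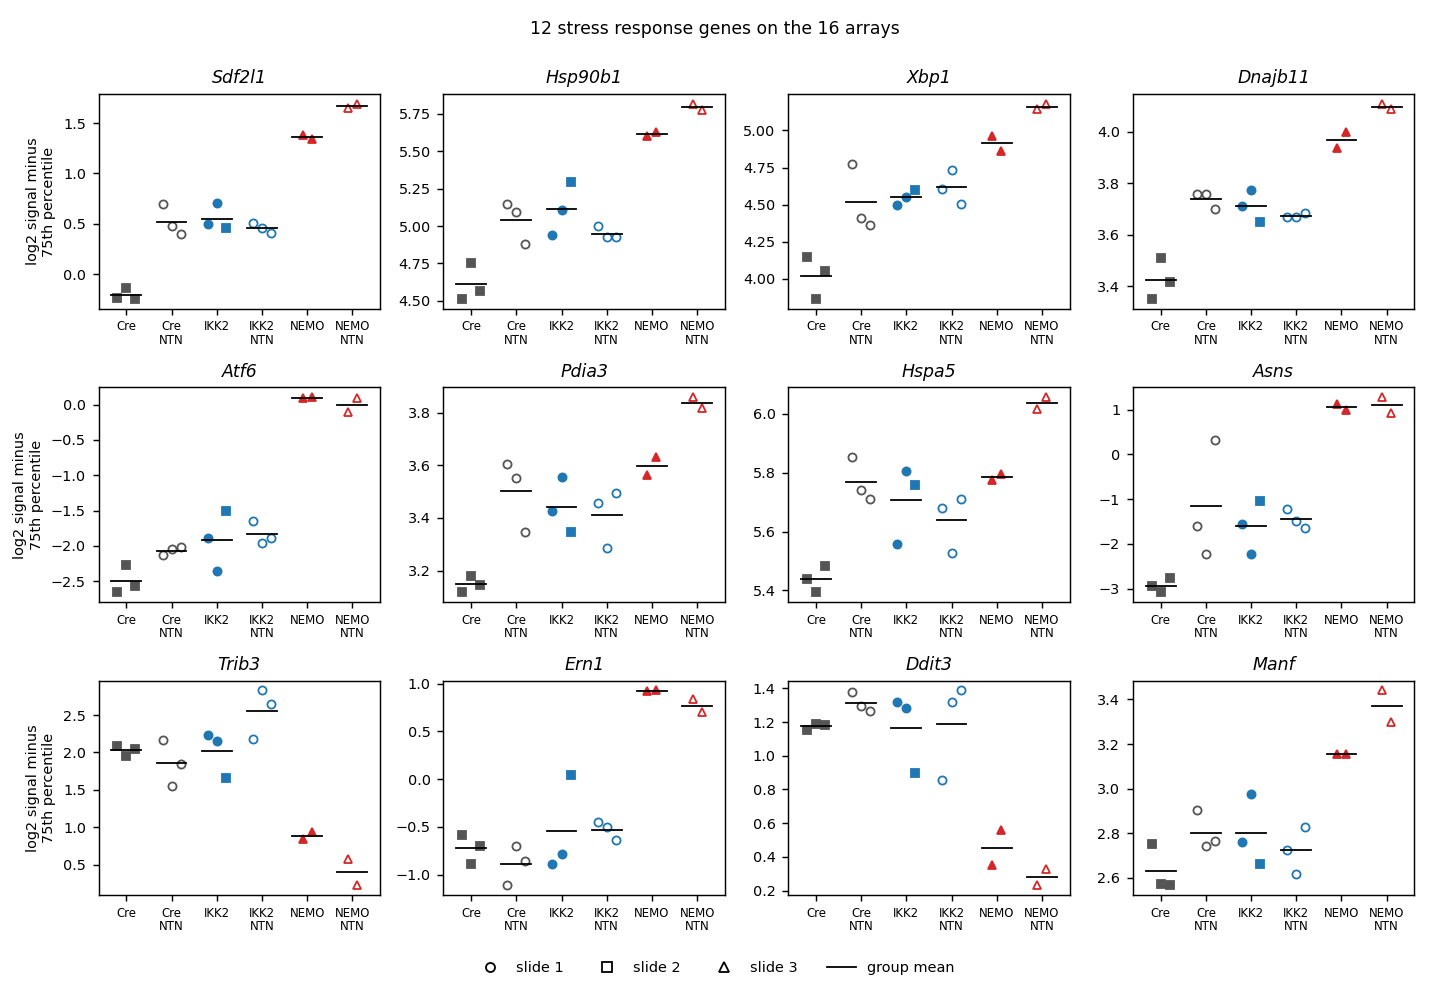
Log2 signal minus the array's 75th percentile (vertical axis, each panel with its own scale) of 12 genes (7 that passed in 5 or 6 comparisons, and of 10 tied at 4 the 5 with the largest difference), on the 16 arrays by group; each point is 1 array, filled without and open with nephritis, its shape gives the slide, and the line is the group mean. The NEMO arrays are the highest for Sdf2l1, Hsp90b1, Xbp1, Atf6, Asns and Ern1 and the lowest for Trib3 and Ddit3.

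Among the transcription factors, Xbp1 was higher and Ddit3 lower in NEMO than in Cre T cells. Xbp1 read 4.15, 3.86 and 4.05 in Cre, 4.5, 4.55 and 4.60 in IKK2 and 4.96 and 4.86 in NEMO arrays without nephritis. Nephritic mice gave values of 4.78, 4.41 and 4.36 in Cre, 4.61, 4.74 and 4.51 in IKK2 and 5.14 and 5.18 in NEMO mice. Cre arrays without nephritis were the lowest of all and the NEMO arrays the highest, with no overlap. Xbp1 was higher in NEMO than in Cre by 0.89 ± 0.125 (SE, adjusted p = 0.000156) without and 0.65 ± 0.125 (SE, adjusted p = 0.00134) with nephritis.

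Ddit3, which encodes the pro-apoptotic factor CHOP, went the other way. It read 1.16, 1.19 and 1.18 in Cre, 1.32, 1.28 and 0.90 in IKK2 and 0.35 and 0.56 in NEMO arrays. With nephritis the values were 1.38, 1.30 and 1.26 in Cre, 0.86, 1.32 and 1.39 in IKK2 and 0.23 and 0.33 in NEMO mice. The 4 NEMO arrays were the lowest of the 16. Ddit3 was lower in NEMO than in Cre mice, at -0.72 ± 0.158 (SE, adjusted p = 0.0032) without and -1.03 ± 0.158 (SE, adjusted p = 0.00026) with nephritis. Atf4 itself did not pass in any comparison, with differences from Cre of 0.29 ± 0.273 and 0.28 ± 0.273 in NEMO mice, and its Cre arrays ranged from 5.87 to 7.13. Atf5, another factor that is translated under stress, was higher in NEMO than in Cre without nephritis, by 0.42 ± 0.0942 (SE, adjusted p = 0.00372). Atf3, a stress-induced repressor, was well above background on 8 of the 16 arrays and did not pass between NEMO and Cre.

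Of the 11 ER chaperones and cofactors, 7 were higher in NEMO than in Cre T cells without nephritis and 8 with nephritis, and none was lower. Sdf2l1, a partner of BiP in retaining unfolded protein, read -0.23, -0.14 and -0.25 in Cre, 0.49, 0.70 and 0.46 in IKK2 and 1.38 and 1.34 in NEMO arrays. In nephritic mice its values were 0.69, 0.47 and 0.40 in Cre, 0.51, 0.46 and 0.40 in IKK2 and 1.65 and 1.69 in NEMO mice. The Cre arrays without nephritis were the only ones below 0, the NEMO arrays the only ones above 1, and the other 3 groups overlapped. The NEMO difference from Cre was 1.57 ± 0.0984 (SE, adjusted p = 8.68e-07), a 2.97-fold higher signal, without nephritis and 1.15 ± 0.0984 (SE, adjusted p = 4.02e-06) with it.

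Hsp90b1 encodes GRP94, the ER member of the HSP90 family. It read 4.51, 4.75 and 4.57 in Cre, 4.94, 5.11 and 5.29 in IKK2 and 5.60 and 5.63 in NEMO arrays. Nephritic mice gave 5.15, 5.10 and 4.88 in Cre, 5.00, 4.93 and 4.92 in IKK2 and 5.82 and 5.78 in NEMO. All NEMO arrays exceeded all others, by 1.0 ± 0.112 (SE, adjusted p = 2.95e-05) over Cre without nephritis and 0.76 ± 0.112 (SE, adjusted p = 0.000219) with it. Hspa5, the gene of BiP, the chaperone that holds the sensors inactive, read 5.44, 5.39 and 5.48 in Cre, 5.56, 5.81 and 5.76 in IKK2 and 5.77 and 5.79 in NEMO arrays. With nephritis it read 5.85, 5.74 and 5.71 in Cre, 5.68, 5.53 and 5.71 in IKK2 and 6.02 and 6.06 in NEMO mice. Here the NEMO arrays without nephritis overlapped the IKK2 arrays, and the Cre arrays lay below both. The difference from Cre was 0.35 ± 0.0886 (SE, adjusted p = 0.00812) without and 0.27 ± 0.0886 (SE, adjusted p = 0.0262) with nephritis, smaller than for Hsp90b1.

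Dnajb11, a J-domain partner of BiP, read 3.35, 3.51 and 3.42 in Cre, 3.71, 3.77 and 3.65 in IKK2 and 3.94 and 4.0 in NEMO arrays. The nephritic arrays read 3.76, 3.76 and 3.70 in Cre, 3.67, 3.67 and 3.68 in IKK2 and 4.11 and 4.09 in NEMO mice. Cre arrays were the lowest and NEMO arrays the highest, and NEMO exceeded Cre by 0.54 ± 0.0682 (SE, adjusted p = 6.65e-05) without and 0.36 ± 0.0682 (SE, adjusted p = 0.00116) with nephritis. Manf, a secreted ER-stress protein that binds BiP, read 2.75, 2.57 and 2.57 in Cre, 2.76, 2.98 and 2.66 in IKK2 and 3.16 and 3.16 in NEMO arrays. The arrays with nephritis read 2.90, 2.74 and 2.76 in Cre, 2.73, 2.62 and 2.83 in IKK2 and 3.44 and 3.30 in NEMO mice. The Cre and IKK2 groups overlapped and the NEMO arrays were above them, by 0.53 ± 0.107 (SE, adjusted p = 0.00206) and 0.57 ± 0.107 (SE, adjusted p = 0.00115) over Cre. Creld2, an ER protein induced by stress, and Hyou1, an HSP70-like nucleotide exchange factor, were also higher in NEMO arrays in both states, Creld2 by 0.56 ± 0.0899 and 0.61 ± 0.0899 and Hyou1 by 0.31 ± 0.113 and 0.35 ± 0.113. Over 16 alternative settings Creld2 passed in 16 in both states, whereas Hyou1 passed in 3 without and 10 with nephritis. The lectin chaperones did not pass, with differences without nephritis of 0.15 ± 0.0868 for Calr and 0.04 ± 0.0910 for Canx.

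Promoter sequences of 3 chaperones and 1 isomerase that were higher in NEMO are shown for the element that the rule for choosing the genes did not use. RefSeq windows on the mouse build GRCm38.p6, from 250 bases before to 50 bases after the annotated start, were at hand for 32 of the 36 genes. Both strands were searched for the ER stress response element ERSE (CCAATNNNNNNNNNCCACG), ERSE-II (ATTGG and CCACG, 1 base apart), the XBP1 element UPRE (TGACGTGG) and the ATF4 composite element CARE (TGATGNAA), and no matches overlapped. ERSE was present in 9 of the 32 genes (28.1%) and in 0.137% of all 27025 genes with a window, and ERSE-II in 2 (6.25%) and 0.0444%. UPRE was in none of the 32 and in 0.714% of all genes. The genes were listed for their known place in this pathway, so these shares describe the list. In the windows below, of Hspa5 (chr2:34771840-34772139, plus strand), Hsp90b1 (chr10:86705395-86705694, minus strand, with 2 copies), Pdia6 (chr12:17266339-17266638, plus strand) and Dnajb11 (chr16:22857595-22857894, plus strand), the element is in capitals, ERSE-II for Dnajb11 and ERSE for the rest, and a match on the opposite strand reads as the reverse complement.
Hspa5: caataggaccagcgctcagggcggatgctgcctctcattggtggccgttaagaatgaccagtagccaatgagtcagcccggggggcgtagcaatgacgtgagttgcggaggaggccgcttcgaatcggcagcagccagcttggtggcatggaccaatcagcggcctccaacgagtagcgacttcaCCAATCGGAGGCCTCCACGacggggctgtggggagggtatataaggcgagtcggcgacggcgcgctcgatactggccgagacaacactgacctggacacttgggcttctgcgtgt
Hsp90b1: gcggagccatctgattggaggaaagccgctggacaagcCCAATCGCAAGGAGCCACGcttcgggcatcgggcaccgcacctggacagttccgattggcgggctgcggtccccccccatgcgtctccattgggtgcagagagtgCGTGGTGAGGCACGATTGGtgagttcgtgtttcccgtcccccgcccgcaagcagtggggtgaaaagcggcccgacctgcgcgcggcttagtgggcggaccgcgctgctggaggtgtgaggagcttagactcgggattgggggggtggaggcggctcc
Pdia6: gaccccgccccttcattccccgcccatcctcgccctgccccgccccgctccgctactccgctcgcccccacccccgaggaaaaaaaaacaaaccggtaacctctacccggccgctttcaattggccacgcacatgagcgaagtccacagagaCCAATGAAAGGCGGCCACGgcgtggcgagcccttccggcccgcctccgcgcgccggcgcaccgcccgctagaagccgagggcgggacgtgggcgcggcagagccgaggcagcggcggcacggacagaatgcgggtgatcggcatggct
Dnajb11: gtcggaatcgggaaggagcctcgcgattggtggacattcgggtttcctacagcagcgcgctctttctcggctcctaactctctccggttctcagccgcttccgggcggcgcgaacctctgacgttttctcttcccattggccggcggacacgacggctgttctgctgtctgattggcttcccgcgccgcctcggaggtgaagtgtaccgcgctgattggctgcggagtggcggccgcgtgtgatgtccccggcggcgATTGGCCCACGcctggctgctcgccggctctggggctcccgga
The other genes with ERSE were Calr, Canx, Creld2, Derl3, Dnajc3 and Syvn1, and the other with ERSE-II was Herpud1. Without nephritis 4 of the 9 genes with ERSE and 12 of the 23 without it were higher in NEMO than in Cre arrays. Sdf2l1, whose difference was the largest among the chaperones, had none of these 4 motifs in its window.

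All 4 disulfide isomerases, the enzymes that form and reshuffle disulfide bonds in the ER, were higher in NEMO than in Cre T cells without nephritis. Pdia3, which works with calnexin and calreticulin, read 3.12, 3.18 and 3.15 in Cre, 3.43, 3.56 and 3.35 in IKK2 and 3.56 and 3.63 in NEMO arrays. With nephritis it read 3.6, 3.55 and 3.35 in Cre, 3.46, 3.29 and 3.49 in IKK2 and 3.86 and 3.82 in NEMO mice. The Cre arrays lay below all others, and without nephritis the NEMO arrays lay at the top of the IKK2 range and overlapped that of the Cre NTN arrays. NEMO exceeded Cre by 0.45 ± 0.0959 (SE, adjusted p = 0.00279) without and 0.34 ± 0.0959 (SE, adjusted p = 0.0126) with nephritis. The differences without nephritis were 0.56 ± 0.129 for Pdia4, 0.41 ± 0.113 for P4hb and 0.40 ± 0.0722 for Pdia6. With nephritis Pdia4 and Pdia6 passed and P4hb, at 0.21 ± 0.113, did not. Over 16 alternative settings with nephritis, Pdia4 passed in 6 and Pdia6 in 3.

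ERAD, which draws misfolded protein back to the cytosol for degradation, had fewer genes past the threshold than the chaperones. Over all genes 21.0% were higher in NEMO than in Cre without nephritis and 18.8% with it. Of the 8 genes of ERAD and the translocon, 3 were higher without and 1 with nephritis, too few to set them apart from all genes. These were Derl1 (0.26 ± 0.0968) and Derl2 (0.41 ± 0.0897), both of the Derlin family, and Sec61b (0.31 ± 0.0884), a subunit of the translocon, and Derl2 alone with nephritis (0.29 ± 0.0897). Derl1 passed in 5 of 16 alternative settings without nephritis. Another probe for Derl2 gave -0.08 without and -0.34 with nephritis, opposite in sign, and a further one gave 0.54 and 0.44, so the direction of Derl2 depends on the probe. The ubiquitin ligase gene Syvn1, its partner Sel1l and the mannosidase-like Edem1 passed in no comparison. Herpud1, another ERAD component, was lower in NEMO than in IKK2 mice with nephritis, at -0.32 ± 0.119 (SE, limma adjusted p = 0.0413). That call was kept in 2 of 16 alternative settings.

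Derl3, another Derlin, is shown here after its values were seen, because its arrays followed plasma cell markers. It read -3.13, -3.10 and -3.12 in Cre, -2.28, -1.89 and -1.65 in IKK2 and -1.38 and -1.51 in NEMO arrays. With nephritis it read 0.15, -2.94 and -2.36 in Cre, -2.82, -2.54 and -2.51 in IKK2 and 0.05 and -1.30 in NEMO arrays. Its highest arrays, Cre NTN replicate 1 and NEMO NTN replicate 1, also had the highest mean of 6 plasma cell markers, at 0.65 and 1.03 beside -1.62 to 0.07 on the other Cre NTN, NEMO and NEMO NTN arrays. Derl3 passed only between NEMO and IKK2 with nephritis, at 2.0 ± 0.685 (SE, adjusted p = 0.0318). Without NEMO NTN replicate 1 that difference was 1.32, and without NEMO NTN replicate 2 it was 2.67. With the plasma cell mean as a covariate it was -0.82 (limma adjusted p = 0.104). Derl3 was picked for following these markers, so that fit cannot decide on their part, which was not tested.

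**Figure D2:**
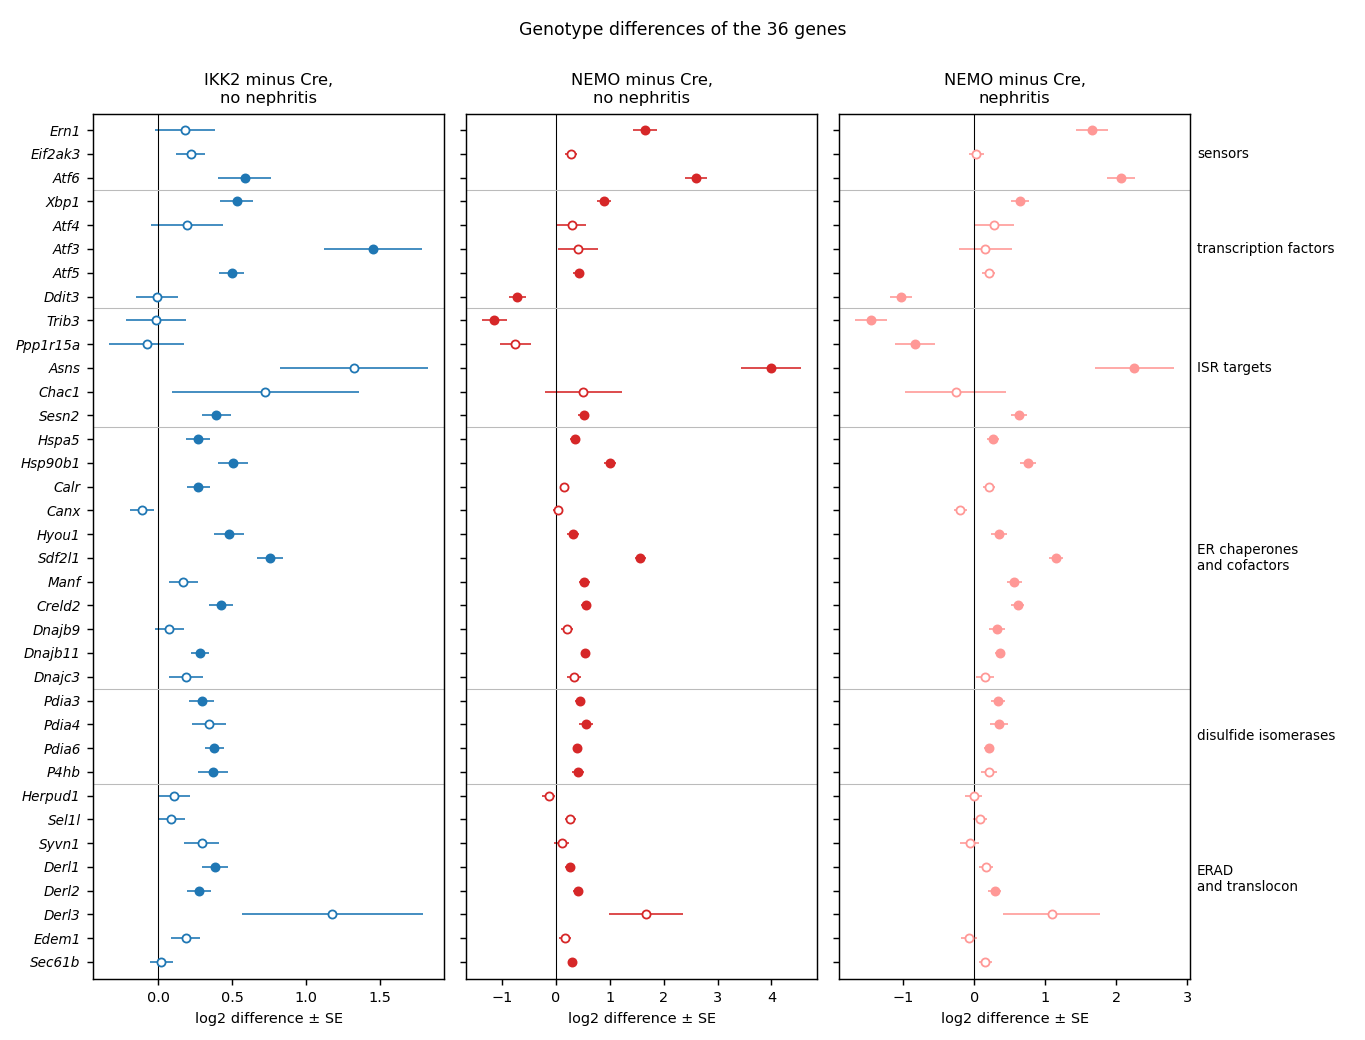
Log2 difference ± SE of the 36 genes by role for IKK2 minus Cre without nephritis (n = 3 and 3), NEMO minus Cre without nephritis (n = 2 and 3) and NEMO minus Cre with nephritis (n = 2 and 3); filled points passed the threshold and each panel has its own horizontal scale. Most chaperones and isomerases lie to the right of 0 in all panels, Asns and Atf6 lie furthest to the right in both NEMO panels, and Ddit3 and Trib3 lie to the left in both NEMO panels and near 0 in the IKK2 panel.

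The targets of the integrated stress response moved in opposite directions in the NEMO knockouts. Asns, asparagine synthetase, read -2.95, -3.08 and -2.77 in Cre, -1.55, -2.21 and -1.05 in IKK2 and 1.13 and 1.0 in NEMO arrays. In nephritic mice it stood at -1.59, -2.22 and 0.32 in Cre, -1.21, -1.48 and -1.65 in IKK2 and 1.28 and 0.91 in NEMO mice. The NEMO arrays were the 4 highest, Cre arrays without nephritis the 3 lowest, and Cre NTN replicate 3 stood far above the other Cre NTN arrays. NEMO exceeded Cre by 3.99 ± 0.560 (SE, adjusted p = 0.000154) without nephritis, the largest difference among the 36 genes at 15.9-fold, and by 2.26 ± 0.560 (SE, adjusted p = 0.00606) with it. Over 16 alternative settings the difference without nephritis ran from 2.61 to 4.24, with a limma adjusted p of up to 0.127. Without Cre NTN replicate 3 the difference with nephritis was 3.0 (SE 0.325, adjusted p = 4.87e-05). The same Cre NTN replicate 3 had an erythroid marker mean of 3.63, the highest of the 16 arrays, and its part in Asns was not tested.

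Trib3, a pseudokinase induced by ATF4 and CHOP, read 2.09, 1.96 and 2.05 in Cre, 2.24, 2.15 and 1.65 in IKK2 and 0.84 and 0.94 in NEMO arrays. Nephritic mice gave 2.17, 1.55 and 1.84 in Cre, 2.18, 2.83 and 2.64 in IKK2 and 0.58 and 0.22 in NEMO. The NEMO arrays were the 4 lowest, and the IKK2 NTN arrays had the highest group mean. NEMO differed from Cre by -1.14 ± 0.227 (SE, adjusted p = 0.00173) without and -1.45 ± 0.227 (SE, adjusted p = 0.000311) with nephritis, and from IKK2 with nephritis by -2.15 ± 0.227 (SE, adjusted p = 1.97e-05). Ppp1r15a, the eIF2 alpha phosphatase subunit GADD34, was lower in NEMO than in Cre only with nephritis by this threshold (-0.83 ± 0.284, adjusted p = 0.0299), and without nephritis it differed by -0.75 ± 0.284 (SE, adjusted p = 0.0503). Over 16 alternative settings with nephritis, Ppp1r15a passed in 6. Sesn2, a stress-induced inhibitor of mTORC1, was higher by 0.51 ± 0.111 without and 0.63 ± 0.111 with nephritis. Chac1, which degrades glutathione, was well above background on 6 arrays only and passed in no comparison.

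Asns and Trib3, which moved apart, both carry the ATF4 composite element in their windows, Asns at chr6:7693160-7693459 and Trib3 at chr2:152344011-152344310, both on the minus strand, with the element in capitals, as its reverse complement where it matched the opposite strand.
Asns: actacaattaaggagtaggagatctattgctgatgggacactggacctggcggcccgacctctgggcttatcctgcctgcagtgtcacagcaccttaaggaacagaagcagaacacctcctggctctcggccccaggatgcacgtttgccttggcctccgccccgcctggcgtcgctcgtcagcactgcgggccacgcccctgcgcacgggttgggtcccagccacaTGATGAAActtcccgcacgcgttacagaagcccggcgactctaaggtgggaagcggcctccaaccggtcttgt
Trib3: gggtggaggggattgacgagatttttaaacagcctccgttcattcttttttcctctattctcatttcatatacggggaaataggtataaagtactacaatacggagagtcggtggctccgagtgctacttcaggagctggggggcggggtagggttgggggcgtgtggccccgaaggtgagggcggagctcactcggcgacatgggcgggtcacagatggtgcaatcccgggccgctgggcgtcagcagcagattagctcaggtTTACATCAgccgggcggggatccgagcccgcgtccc
CARE was found in 5 of the 32 genes (15.6%), the others being Atf3, Chac1 and Herpud1, and in 4.51% of all genes. Without nephritis 1 of these 5 genes was higher and 1 lower in NEMO than in Cre arrays.

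In the IKK2 knockouts without nephritis, 7 of the 11 chaperones, 3 of the 4 isomerases and Xbp1 were higher than in Cre, and none of the 36 genes was lower. Of the 36 genes 17 were higher, beside 10.0% of all genes higher and 4.52% lower (14.6% in all), and the median difference was 0.29 beside 0.05 over all genes. The others were Atf3, Atf5, Atf6, Derl1, Derl2 and Sesn2. Sdf2l1 differed by 0.76 ± 0.0880 (SE, adjusted p = 0.000529), Xbp1 by 0.53 ± 0.112 (SE, adjusted p = 0.0103), Hsp90b1 by 0.50 ± 0.101 (SE, adjusted p = 0.00786) and Creld2 by 0.42 ± 0.0804 (SE, adjusted p = 0.00634). On the arrays listed above, each IKK2 array exceeded each Cre array for Sdf2l1, Xbp1, Hsp90b1, Dnajb11, Hspa5 and Pdia3. As these genes passed the test on the same arrays, this adds no support, and the share of all genes without overlap is not given. For Atf6 (0.58 ± 0.179, limma adjusted p = 0.0491) IKK2 replicate 2 fell within the Cre range. Atf3 read -3.31, -2.86 and -4.02 in IKK2 arrays and was not well above background on any Cre array, so its signal was at least 2.35-fold higher in IKK2, set against the lowest signal well above background on each Cre array (adjusted p = 0.0139).

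Slides enter this comparison, since the Cre arrays and only 1 IKK2 array shared slide 2. On that slide IKK2 replicate 3 lay above all 3 Cre arrays for 26 of the 36 genes and for 31.0% of all genes. It lay below all 3 for 3 of the 36 and for 34.4% of all genes. This is 1 IKK2 array, and the same 4 arrays enter the test above. A fit with slide as a block called 4 genes, and 3 of the 17 stayed past the threshold, Sdf2l1 at 0.67 (SE 0.122, adjusted p = 0.0143), Hsp90b1 at 0.68 (SE 0.126, adjusted p = 0.015) and Atf6 at 0.99 (SE 0.196, adjusted p = 0.0188). B cell markers moved with this comparison: the mean of 12 markers was -3.24 to -2.90 on Cre and -1.14 to -0.65 on IKK2 arrays, and with it as a covariate none of the 36 genes passed. The differences under that covariate were 1.20 (SE 0.192, adjusted p = 0.142) for Sdf2l1, 0.91 (SE 0.239, adjusted p = 0.353) for Hsp90b1 and 0.04 (SE 0.253, adjusted p = 0.981) for P4hb, so the SE was larger and the size did not fall for all genes. Leaving out Cre replicate 2 or replicate 3 left 10 genes each. With nephritis, where all 6 arrays shared slide 1, no gene passed between IKK2 and Cre (5 at an unadjusted p under 0.05, median difference -0.03), and 2.60% of all genes did.

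NEMO and IKK2 knockouts were compared directly. Without nephritis 9 of the 36 genes were higher and 3 lower in NEMO than in IKK2 arrays, beside 15.4% and 19.9% of all genes, so the share that changed, 33.3%, was near the 35.3% of all genes. Asns (2.67 ± 0.560, adjusted p = 0.00309), Atf6 (2.02 ± 0.201, adjusted p = 2.2e-05), Ern1 (1.47 ± 0.227, adjusted p = 0.000431) and Sdf2l1 (0.81 ± 0.0984, adjusted p = 8.23e-05) were higher, and Trib3 (-1.13 ± 0.227, adjusted p = 0.00238), Atf3 (-1.04 ± 0.368, adjusted p = 0.0452) and Ddit3 (-0.71 ± 0.158, adjusted p = 0.00429) were lower. Over 16 alternative settings without nephritis, Atf3 passed in 5. With nephritis 17 genes were higher and 4 lower, beside 19.0% and 27.2% of all genes (46.1% in all, and 58.3% of the 36). The median was 0.26 beside -0.10. Of the chaperones 7 of 11 were higher in NEMO, among them Sdf2l1 at 1.21 ± 0.0984 (SE, adjusted p = 2.89e-06) and Hsp90b1 at 0.85 ± 0.112 (SE, adjusted p = 9.74e-05). The lower genes were Trib3, Ddit3, Ppp1r15a at -1.06 ± 0.284 (SE, adjusted p = 0.0098) and Herpud1. The comparisons with IKK2 and with Cre share the NEMO arrays, and without NEMO replicate 1 the count against IKK2 without nephritis was 7.

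With nephritis 4 of the 11 chaperones, 2 of the 4 isomerases, Xbp1 and Derl1 were higher in Cre T cells, and in the knockouts none of the 36 genes passed. In Cre mice 8 of the 36 were higher with nephritis and none lower, beside 2.57% and 1.46% of all genes (4.03% in either direction), and the median difference was 0.25 beside 0.10. They were Sdf2l1 (0.73 ± 0.0880, adjusted p = 0.00445), Xbp1 (0.49 ± 0.112, adjusted p = 0.0347), Hsp90b1 (0.43 ± 0.101, adjusted p = 0.0382), Derl1 (0.38 ± 0.0866, adjusted p = 0.0355), Pdia3 (0.35 ± 0.0858, adjusted p = 0.043), Hspa5 (0.33 ± 0.0793, adjusted p = 0.0407), Pdia6 (0.32 ± 0.0645, adjusted p = 0.0246) and Dnajb11 (0.31 ± 0.0610, adjusted p = 0.0234). In the arrays listed above the Cre NTN values of Sdf2l1, Hsp90b1, Xbp1, Dnajb11, Hspa5 and Pdia3 all lay above the Cre values. These genes passed the test on the same arrays, so this adds no support, and the share of all genes without overlap is not given. This comparison and that of IKK2 with Cre share the Cre arrays without nephritis. Nephritic Cre arrays were on slide 1 and the Cre arrays on slide 2, and with slide as a block no gene passed. The blocked differences were 0.70 (SE 0.161, adjusted p = 0.148) for Hsp90b1, 0.59 (SE 0.156, adjusted p = 0.198) for Sdf2l1, 0.57 (SE 0.208, adjusted p = 0.335) for Xbp1 and 0.21 (SE 0.151, adjusted p = 0.667) for Pdia3, with larger SEs than without the block. Leaving out Cre replicate 1, 2 or 3 left 1, 3 and 1 genes, and leaving out Cre NTN replicate 1, 2 or 3 left 3, 2 and 5. Sdf2l1 passed in 16 of 18 alternative settings, whereas Derl1 and Hspa5 passed in 1 of 18 each.

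In IKK2 mice none of the 36 genes passed with nephritis (4 at an unadjusted limma p under 0.05), beside 0.443% of all genes, and the median difference was -0.04. Sdf2l1 differed there by -0.09 ± 0.0880 (SE, adjusted p = 0.698), Xbp1 by 0.07 ± 0.112 (SE, adjusted p = 0.853) and Hsp90b1 by -0.16 ± 0.101 (SE, adjusted p = 0.492). In NEMO mice none passed (6 at an unadjusted p under 0.05), beside 0.416% of all genes, and the median was 0.12 beside -0.02. Sdf2l1 differed there by 0.31 ± 0.108 (SE, limma adjusted p = 0.53) and Hsp90b1 by 0.18 ± 0.123 (adjusted p = 0.983). Xbp1 differed by 0.25 ± 0.137 (adjusted p = 0.888) and Hspa5 by 0.25 ± 0.0971 (adjusted p = 0.612). Other genes went the other way, among them Ern1 and Trib3, whose means in NEMO mice were lower with nephritis. The NEMO and NEMO NTN arrays shared slide 3, and 2 arrays in each group limit the precision.

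**Figure D3:**
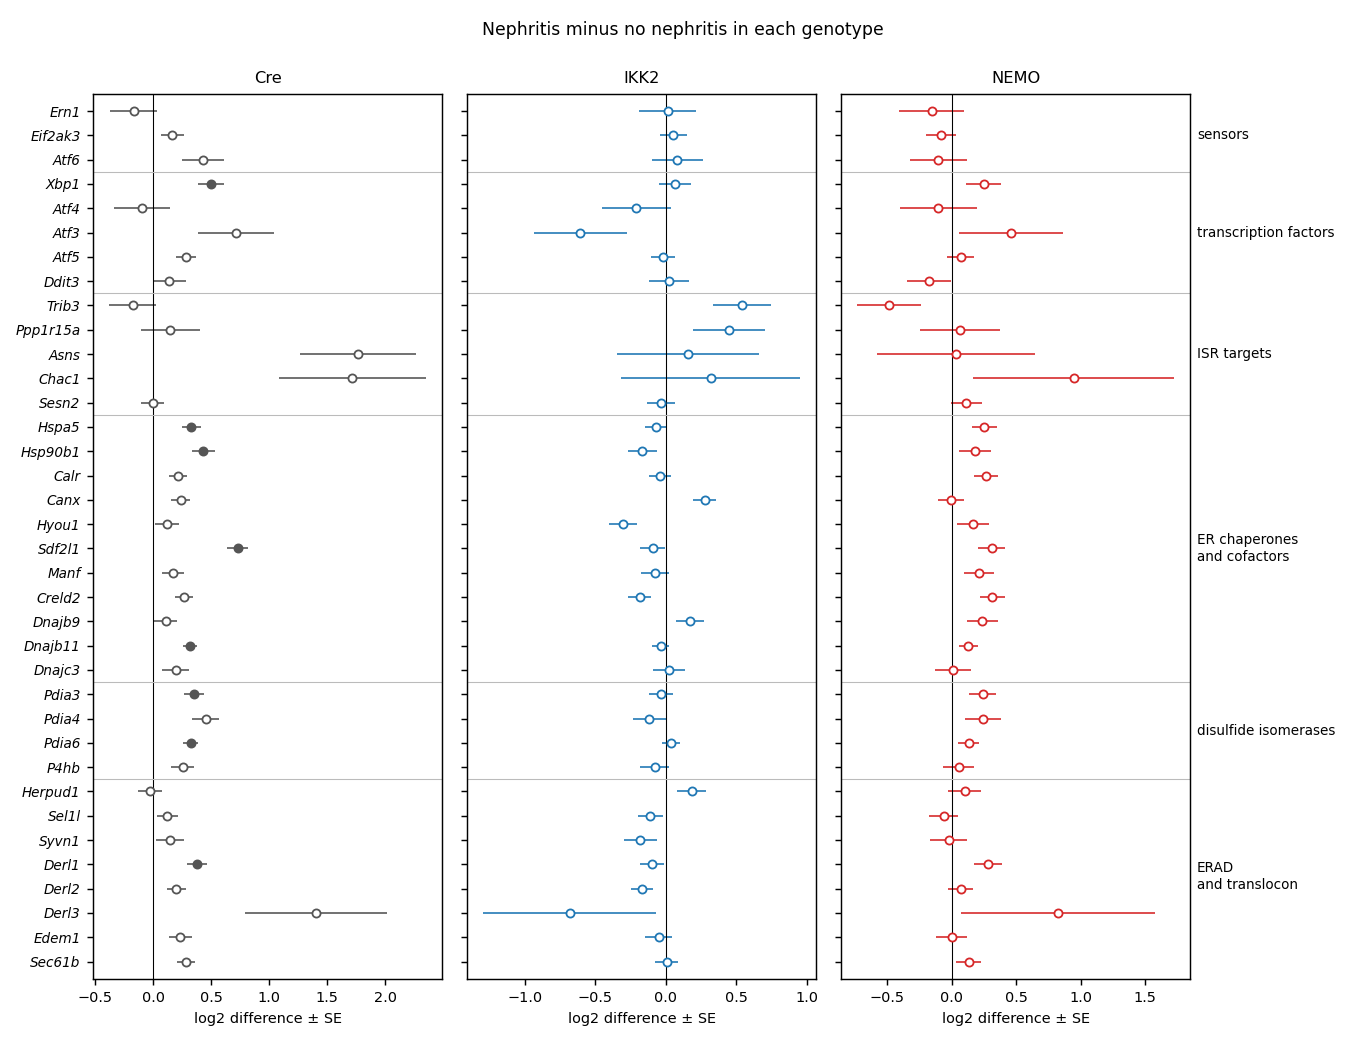
Log2 difference ± SE between nephritis and no nephritis for the 36 genes by role in Cre (n = 3 and 3), IKK2 (n = 3 and 3) and NEMO (n = 2 and 2) mice; filled points passed the threshold and each panel has its own horizontal scale. In Cre mice 8 genes are filled and all of them lie to the right of 0, and no gene is filled in the IKK2 and NEMO panels.

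Whether the response to nephritis differed between genotypes was tested as a difference of differences. Only Sdf2l1 passed, between IKK2 and Cre: its response was 0.73 in Cre and -0.09 in IKK2 mice, a difference of -0.82 ± 0.124 (SE, adjusted p = 0.0273), beside 1.14% of all genes (0.300% with a higher and 0.838% with a lower response). The arrays show a rise from below 0 to between 0.40 and 0.69 in Cre mice, and IKK2 arrays that were between 0.46 and 0.70 without nephritis and between 0.40 and 0.51 with it. It did not pass with slide as a block (-0.73, SE 0.15, adjusted p = 0.0736), nor without Cre replicate 3, Cre NTN replicate 2, or IKK2 NTN replicate 2 or 3. Between NEMO and Cre no gene passed, beside 0.266% of all genes, and 2 had an unadjusted p under 0.05. Between NEMO and IKK2 none passed either, beside 0.252%, and 8 had an unadjusted p under 0.05.

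The rest of the pathway was followed in a list of 88 further genes, of which 85 were tested. In NEMO against Cre without nephritis 25 were higher and 5 lower, a share of 35.3% changed beside 43.0% of all genes. With the largest differences were Nupr1, a stress-induced chromatin protein (2.39, SE 0.373, adjusted p = 0.00033), Stc2, stanniocalcin 2 (2.16, SE 0.481, adjusted p = 0.00358) and Pdia5, another isomerase (2.04, SE 0.626, adjusted p = 0.0202). Lower were Pck2, mitochondrial phosphoenolpyruvate carboxykinase (-0.46), Sec31a of the COPII coat (-0.36) and Srp54a of the signal recognition particle (-0.34). With nephritis 18 were higher and 10 lower, 32.9% beside 48.3% of all genes. Stc2 was not well above background on any Cre NTN array, and its signal was at least 4.61-fold higher in NEMO. Pdia5 (1.92, SE 0.626) and the ER oxidase Ero1a, entered in the gene list as Ero1l (1.58, SE 0.196), were the next. The tRNA synthetase gene Cars (-0.75), the kinase gene Map3k5 (-0.68) and Shmt2 of serine metabolism (-0.53) were the lowest.

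Of the 85 genes, 9 were higher and 1 lower in IKK2 than in Cre without nephritis (11.8% changed beside 14.6% of all genes), led by Nupr1 (2.12, SE 0.333, adjusted p = 0.00258), Rpn1 of the oligosaccharyltransferase (0.51) and Psph of serine synthesis (0.44), with the protease gene Mbtps2 lower (-0.38). With nephritis Ddit4, an inhibitor of mTORC1, alone passed (1.34, SE 0.231, adjusted p = 0.0121). Between NEMO and IKK2 19 were higher and 6 lower without nephritis (29.4% beside 35.3% of all genes), and 25 and 11 with it (42.4% beside 46.1%). Stc2 was again among the highest, at least 3.58-fold without nephritis and 2.72 (SE 0.481) on the log2 scale with it, and Ero1a differed by 1.36 and 1.72. The lowest were Cars (-0.87) and Shmt2 (-0.57) without, and Ddit4 (-1.29) and Cars (-1.13) with nephritis. With nephritis 5 genes were higher in Cre mice, led by Cebpb, a transcription factor (0.46), Psph (0.40) and Stt3a of the oligosaccharyltransferase (0.39). Ddit4 alone rose in IKK2 mice (1.5, SE 0.231, adjusted p = 0.0199) and Wfs1, an ER membrane protein gene, in NEMO mice (0.73, SE 0.112, adjusted p = 0.0146).

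Markers of other cells and of division differed between the same groups. Without nephritis 10 of 12 B cell and 7 of 10 myeloid markers were higher in IKK2 than Cre arrays, beside 10.0% of all genes. In NEMO arrays 9 of 12 and 8 of 10 were higher, as were 5 of 6 plasma cell markers, beside 21.0% of all genes. There 3 of 11 T cell markers were lower, near the 22.0% of all genes. Without nephritis 6 dendritic markers averaged -1.91 to -0.41 in Cre, 0.60 to 1.33 in IKK2 and 1.39 to 1.68 in NEMO arrays. The B cell mean was -1.31 to -1.08 on the NEMO arrays. The plasma cell mean, over the 6 of 10 listed markers that could be tested, was -2.36 to -1.82 on Cre, -1.40 to -0.65 on IKK2 and 0.02 to 0.07 on NEMO arrays without nephritis, and -1.62 to 0.65, -1.85 to -1.44 and 0.01 to 1.03 with it. Of these markers, Sdc1 was above background on 6 arrays and Tnfrsf17 on 7, and Mzb1, Jchain, Prdm1 and Irf4 on all 16. Prdm1 and Irf4 are also expressed by activated T cells. With this mean as a covariate, the counts of changed genes among the 36 were 13 for NEMO against Cre both without and with nephritis, 10 for IKK2 against Cre without nephritis and 1 for nephritis in Cre mice. With the B cell mean as a covariate they were 8, 20, 0 and 1. The share of all genes that passed in these fits is not given here. A changed count therefore does not set the 36 genes apart from the rest. In these bulk samples, more cells of a type and more RNA per cell cannot be told apart. The part of the myeloid and dendritic cells was not tested.

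The mean of 17 cell cycle genes was -0.22 to -0.11 on Cre, 0.58 to 0.97 on IKK2 and 2.26 to 2.28 on NEMO arrays, and 0.22 to 0.63, 0.42 to 0.85 and 2.40 to 2.66 with nephritis. Its order over the groups without nephritis was that of the mean of the 36 genes, 1.86 ± 0.0553 (SD, n = 3) in Cre, 2.22 ± 0.0494 (SD, n = 3) in IKK2 and 2.40 ± 0.0223 (SD, n = 2) in NEMO arrays. With nephritis the orders of Cre and IKK2 differed. The mean of the 36 genes was 2.21 in Cre, 2.20 in IKK2 and 2.53 in NEMO mice, and that of the cell cycle genes 0.36, 0.60 and 2.53. Without nephritis the plasma cell mean had the same order, at -2.05 in Cre, -1.02 in IKK2 and 0.04 in NEMO arrays. The mean over all 14679 genes was also lowest in Cre arrays without nephritis, at 0.19, beside 0.32 in IKK2 and 0.32 in NEMO arrays. With nephritis it was 0.30 in Cre, 0.33 in IKK2 and 0.32 in NEMO mice. Part of the lower mean of the 36 genes in Cre arrays without nephritis was therefore shared by all genes. The part of the cell cycle genes in the differences was not tested.

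**Figure D4:**
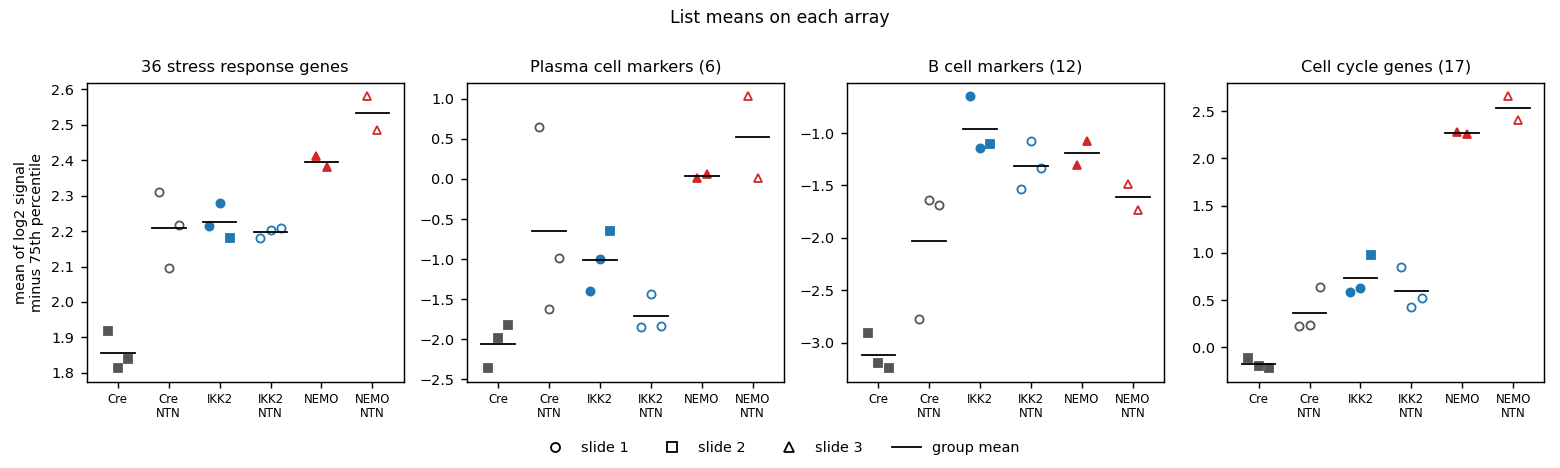
Mean log2 signal minus the array's 75th percentile (vertical axis, own scale per panel) of the 36 genes, 6 plasma cell markers, 12 B cell markers and 17 cell cycle genes on each array by group; points are arrays, filled without and open with nephritis, shapes give the slide and lines the group mean. Cre arrays without nephritis have the lowest group mean in every panel, and NEMO arrays are the highest for the 36 genes and the cell cycle genes. The mean over all genes tested, not shown, is also lowest in Cre arrays without nephritis.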

How the data were processed

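Intensities were deposited by the authors as scanner output, 1 file for each array, with probe signals read by Agilent Feature Extraction, version 10.7.3.1 per the file headers and 10.5 per the submitters' processing notes. No source used here states how the processed intensity was corrected for background. Here ± values are standard errors from the fit unless SD is written. A deposited log2 matrix of the same arrays had medians near 5.7 and served only as an alternative, and its background treatment is unknown. Here control and outlier spots were removed, log2 processed intensity was reduced by each array's 75th percentile, spots of a probe were averaged, and each gene took its brightest probe among those well above background on at least 2 arrays.

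Groups were compared with limma 3.58.1 in R 4.3.3 over all 16 arrays and 6 group means, with 12 contrasts and Benjamini-Hochberg adjustment over 14679 genes within each contrast, at a threshold of 0.05. The number of arrays limits the precision. Array values are given for 12 genes ranked by the number of comparisons passed, with ties taken by the largest absolute log2 difference, and for the 3 sensors, and of the other pathway genes at most 3 in each direction per comparison are named. The members and lists were chosen with earlier results of these data known. Alternatives covered background correction (normexp with an offset of 50 on the median signal, since the mean signal column was not used here), scaling, probe filter and choice, slide, replicate block, marker covariates and left-out arrays. The limma code was tested on simulated data. Promoters were searched with Python 3.11.15.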

Additional observations from a re-analysis of the deposited data

Results flagged for a closer look

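The response of Sdf2l1 to nephritis differed between IKK2 and Cre mice by the test of the difference itself, at -0.82 (SE 0.124, limma adjusted p = 0.0273). Its value was higher with nephritis on 3 of 3 Cre arrays and not in the IKK2 arrays, whose ranges overlapped. Over 24 alternative settings the difference ranged from -1.11 to -0.66 and its adjusted p from 0.0113 to 0.111, and it passed in 12 of them.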

How the results depend on the processing

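The share of all genes that passed under each setting, or with an array left out, is not given here. A changed count among the 36 genes therefore does not set them apart from the rest. These counts moved with the setting as follows. For nephritis in Cre mice the count of 8 was 2 with normexp, with quantile normalization and with the percentile taken over probes detected throughout. It was 1 with the authors' log2 matrix, without the filter on dim probes, with slide as a random block and with either marker covariate, 5 with the replicate block, and 0 with only the arrays compared or slide as a fixed block. For IKK2 against Cre without nephritis the count of 17 was 8 with normexp and with the authors' matrix, 11 without the filter, 3 with only the arrays compared, 4 with slide as a fixed block (3 of them among the 17), 10 with the plasma cell covariate and 0 with the B cell covariate. With only the arrays of slide 2, where 1 IKK2 array is assumed to vary like the 3 Cre arrays, 2 genes passed and none was among the 17. With nephritis the authors' matrix gave 1. For NEMO against Cre the plasma cell covariate gave 13 both without and with nephritis, the B cell covariate 8 without, and the fit of only the arrays compared 11 with nephritis. For NEMO against IKK2 the arrays compared alone gave 7 without nephritis (4 higher and 3 lower, beside 9 and 3), and the plasma cell covariate 10 with it. The Sdf2l1 interaction was lost, to a count of 0, with normexp, the authors' matrix, no filter, only the arrays compared, slide as a fixed block, the replicate block and both covariates. The cause of these changes was not tested.

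Leaving out 1 array at a time gave counts of 1 to 5 for nephritis in Cre, 10 to 15 for IKK2 against Cre without nephritis, 18 to 23 and 12 to 21 for NEMO against Cre without and with nephritis, 7 to 10 and 16 to 19 for NEMO against IKK2, and 0 to 1 for the interaction. The sign turned in 2 cases: Sesn2 in IKK2 against Cre was -0.023 (adjusted p = 0.991) with the B cell covariate, and Derl3 in NEMO against IKK2 with nephritis was -0.82 (adjusted p = 0.104) with the plasma cell covariate. Over the 101 calls of a gene in a comparison, combinations of a call and an alternative kept their side of the threshold in 1212 cases, lost it with the same sign in 477 and turned sign in 2. Replicate numbers did not pair the arrays, since the correlation of deviations at the same number ran from -0.199 to 0.126, and the replicate block gave 14 for IKK2 against Cre and 21 and 17 for NEMO against Cre. Slide could not be used as a block for NEMO comparisons. Without the filter, the median over all genes was -0.22 and -0.33 for NEMO against Cre without and with nephritis, so directions there are relative to it. Atf3 and Chac1 were limited by signal over background.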
